A study of Homo sapiens with 4 samples.

Results

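The 4 mature miRNAs described here were listed as erythroid (red cell) miRNAs and were followed through a knockdown of ERH in K562 cells. Their enrichment in red cell precursors was not measured here. They are hsa-miR-486-5p, hsa-miR-486-3p, hsa-miR-22-3p and hsa-miR-210-3p. They were chosen by name, as erythroid-enriched miRNAs outside the locus of miR-144 and miR-451a, and all 4 had a row among the 2366 miRNA rows of the count tables. K562 is an established line from a human chronic myeloid leukaemia that can express red cell genes. The K562-dCas9-KRAB cells carried a nuclease-dead Cas9 fused to a repressor domain, which silences the gene that a guide RNA points it to. Both groups shared this line, medium with 10% FBS and a guide RNA against ERH under doxycycline control. The ERH knockdown group received 0.05 µg/ml doxycycline for 5 days, and the control group was kept for the same time without doxycycline. Each of 2 guide RNAs had its own polyclonal line and gave 1 library per group, so there were 2 knockdown and 2 control libraries. Doxycycline itself and the loss of ERH cannot be told apart, and small-RNA libraries give no level of ERH mRNA, so the depth of knockdown is unknown.

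miRNAs are cut from hairpin transcripts, first by the Microprocessor (DROSHA with DGCR8) and then by DICER, which leaves a duplex of a 5p and a 3p arm. An Argonaute protein keeps the guide arm, and the other arm (the passenger) is mostly lost. ERH is a conserved partner of the Microprocessor, and the study asked whether miRNAs whose hairpins lie beside others depend on it. miR-486-5p is abundant in late red cell precursors, where Argonaute 2 slices its passenger miR-486-3p. miR-22 is transcribed from its own noncoding gene and is expressed widely in blood cells. miR-210 is the best known miRNA induced by low oxygen.

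The mature sequences of both arms of miR-22 and miR-210 are shown because the arms, and the seeds by which they pair with targets, set these miRNAs apart from one another. They were taken from the RefSeq table (GRCh38.p14). They cover 2 of the 4 miRNAs (miR-22-3p and miR-210-3p), and no sequence of miR-486 is shown. Capitals mark the seed, bases 2 to 8, and each sequence runs 5′ to 3′.
hsa-miR-22-3p: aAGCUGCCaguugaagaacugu
hsa-miR-22-5p: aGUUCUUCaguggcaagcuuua
hsa-miR-210-3p: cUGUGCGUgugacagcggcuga
hsa-miR-210-5p: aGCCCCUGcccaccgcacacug
Each is 22 bases long. None of these 4 seeds occurs in another of the 2370 mature miRNA names of the table, so neither miR-22-3p nor miR-210-3p shares its seed with a family member there. miR-22-3p holds 45.5% G and C, and miR-210-3p holds 63.6%.

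The miR-210 hairpin shows how far apart the counted arms lie. It spans 110 bases on the minus strand (chr11:568089-568198, GRCh38.p14), with the 5p arm at bases 28 to 49 and the 3p arm at bases 66 to 87, both in capitals.
MIR210: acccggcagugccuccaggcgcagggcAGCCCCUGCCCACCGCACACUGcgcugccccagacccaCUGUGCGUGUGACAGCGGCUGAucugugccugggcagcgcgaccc
Known helper motifs of the Microprocessor were searched on the transcript strand. CNNC (N is any base) starting 16 to 18 bases past the 3p arm was found in the miR-210 hairpin and in 38 of 75 hairpins (50.7%) of the table that are long enough. UG at 14 bases before the 5p arm was not found in it, against 49 of 244 hairpins (20.1%) that hold it.

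None of the 3 miRNAs comes from a run of neighbouring hairpins on 1 strand in GENCODE 29 (GRCh38). MIR22 lies in an exon of MIR22HG on the minus strand (chromosome 17, 1713903 to 1713987), and the nearest other annotated miRNA gene, MIR132, is 335.9 kb away. MIR210 lies in an intron of MIR210HG (chromosome 11), and its nearest miRNA gene, MIR6743, is 358.7 kb away. miR-486 has 2 annotated hairpins in an intron of ANK1, the gene of the red cell membrane protein ankyrin. MIR486-1 lies on the strand of ANK1 and MIR486-2 on the opposite strand, and all 64 bases of MIR486-2 overlap MIR486-1. Both hairpins give miRNAs of the same names, so reads of either arm cannot be split between them.

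The libraries held between 1430434 and 2476700 miRNA reads, the fewest in the control with guide RNA 1. The 4 erythroid marker miRNAs (both arms of miR-144, miR-451a and miR-486-5p itself) were present in every library, summing to 39849 and 39087 CPM in controls (guide RNAs 1 and 2) and to 52714 and 50883 CPM after knockdown (CPM, reads scaled to a total of 1000000 miRNA reads). Most of that difference lay in miR-144-3p, at 8058 and 7734 CPM in controls and 18704 and 16963 CPM after knockdown, while miR-451a was slightly lower, at 25243 and 24549 CPM against 24072 and 24129 CPM. Blood cell markers (3 of 3 present) summed to between 101827 and 110093 CPM. Among markers of other tissues, miR-206 (muscle) had 0 reads in each library, miR-124-3p (neuron) at most 1, miR-122-5p (liver) at most 5 and miR-1-3p (muscle) at most 8. The other neuron marker, miR-9-5p, was present, at 293 and 328 CPM in controls and 371 and 369 CPM after knockdown. The smooth muscle and fibroblast list summed to 749 and 667 CPM in controls and to 1158 and 1128 CPM after knockdown, nearly all of it miR-145-5p, and the epithelium list to 89.5 and 79.1 CPM against 142.3 and 139.5 CPM. The part of these markers in the results below was not tested.

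Relative to the bulk of miRNAs, the passenger arm miR-486-3p fell most and miR-22-3p fell slightly after ERH knockdown, while miR-486-5p and miR-210-3p did not pass the test. With TMM scaling, which sets the bulk of miRNAs level between libraries, the log2 fall of miR-486-3p was -0.70 ± 0.07 (SE; edgeR quasi-likelihood test on 2 against 2 libraries, adjusted p = 5.9e-07). miR-22-3p fell by 0.23 ± 0.06 (edgeR, adjusted p = 0.0068). miR-486-5p stood at -0.05 ± 0.06 (edgeR, adjusted p = 0.46) and miR-210-3p at 0.09 ± 0.09 (edgeR, adjusted p = 0.45). So 2 of the 4 were called, both lower, where 50.9% of all 464 tested miRNAs were called, 25.6% as higher and 25.2% as lower. The median of the 4 was -0.14, against 0.06 over all tested miRNAs. The 4 were abundant, at log2 CPM of 8.9 (miR-210-3p) to 12.7 (miR-486-5p), so all tested miRNAs are not a matched background. In addition, 2 of the 4 are arms of miR-486. The 2 libraries of a group come from separate lines, and edgeR p-values measure only spread of this kind. The variance of each miRNA is estimated partly from all tested miRNAs, so it does not rest on its own 2 libraries per group alone.

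**Figure D1:**
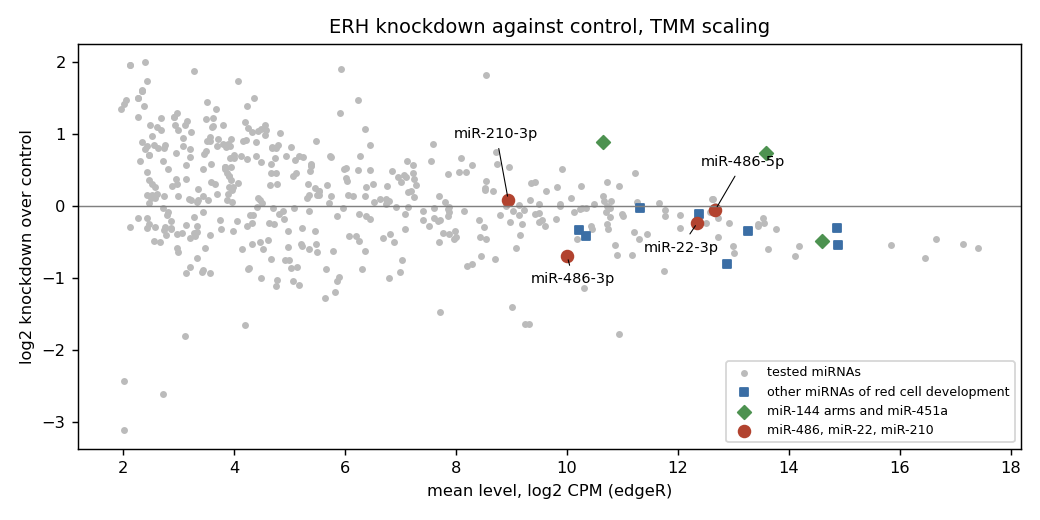
Log2 knockdown over control against mean level (log2 CPM) for each tested miRNA (grey) with TMM scaling. miR-486-3p sits at -0.70 and miR-22-3p at -0.23, while miR-486-5p (-0.05) and miR-210-3p (0.09) lie near the line at 0.

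How the libraries are scaled turned the sign of miR-486-5p and miR-22-3p and changed a call of each of the 4. With library size alone, miR-486-5p was higher after knockdown by 0.39 (edgeR, adjusted p = 5.1e-07), miR-22-3p by 0.20 (adjusted p = 0.0081) and miR-210-3p by 0.53 (adjusted p = 5.1e-06), while miR-486-3p was still lower, at -0.26 (adjusted p = 0.0051). On that scale 58.8% of all tested miRNAs (273) were called higher and 41 miRNAs lower. With the added spike-in RNAs, 0 of the 4 were called by edgeR, and 1 (miR-210-3p, 0.77) had an unadjusted p under 0.05, at 0.040, while 40.1% of all tested miRNAs (186) were called higher and 8 miRNAs lower. miR-486-3p then stood at -0.012 ± 0.38 (SE), miR-486-5p at 0.63 and miR-22-3p at 0.47. That fit did not pair the libraries by guide RNA, and a paired fit on this scale was not made. Within guide RNAs 1 and 2 the spike-in log2 ratios were 0.73 and 0.56 for miR-486-5p and 0.37 and 0.56 for miR-22-3p. They were 0.95 and 0.65 for miR-210-3p and 0.02 and -0.04 for miR-486-3p. Library size moved the median over all tested miRNAs up by 0.44 and the spike-ins moved it by 0.68, so values below are given on several scales, and "rose" and "fell" mean relative to the bulk of miRNAs unless a scale is named.

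miR-486-5p, the guide arm, was the most abundant of the 4 in each library. After knockdown it was read 16880 times in the line of guide RNA 1 and 17646 times in that of guide RNA 2, against 7956 and 14550 times in the matching controls. As shares, these are 7578 and 7372 CPM after knockdown against 5562 and 5875 CPM in controls. Both knockdown libraries lay above both controls on that scale, as did 69.2% of all tested miRNAs. Within guide RNA 1 the log2 ratio of knockdown to control was 0.02 with TMM (95% exact binomial interval of counting error -0.02 to 0.06), and within guide RNA 2 it was -0.12 (-0.16 to -0.09). With library size these were 0.45 and 0.33, and with spike-ins 0.73 and 0.56. With RLE, which also levels the bulk of miRNAs, they were -0.0086 (-0.047 to 0.030) and -0.19 (-0.22 to -0.16). On both of these scales the interval of guide RNA 1 included 0, while guide RNA 2 was lower, and on the other 2 scales both lines were higher. Without the control of guide RNA 1 the fitted value was -0.13 and was called (edgeR, adjusted p = 0.045).

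miR-486-3p was the only 1 of the 4 that was lower after knockdown as a plain share of reads. Its knockdown libraries gave 2178 and 2069 reads, and its controls 1675 and 2579, in the order of guide RNAs 1 and 2. These are 978 and 864 CPM against 1171 and 1041 CPM, and the groups did not overlap, with knockdown lower, which holds for 14.2% of tested miRNAs. The 2 guide RNAs gave nearly the same size, -0.68 (counting interval -0.78 to -0.59) and -0.72 (-0.80 to -0.64) with TMM, and -0.26 and -0.27 with library size. Per 1000 spike-in reads it stood at 36.8 and 43.2 reads after knockdown and at 36.3 and 44.4 in controls, so on that scale the groups overlapped, with means of 40.0 ± 4.5 and 40.3 ± 5.7 (SD, n = 2). Its fall was called in 11 of the 12 alternative fits made (edgeR or DESeq2), with spike-in scaling as the exception.

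**Figure D2:**
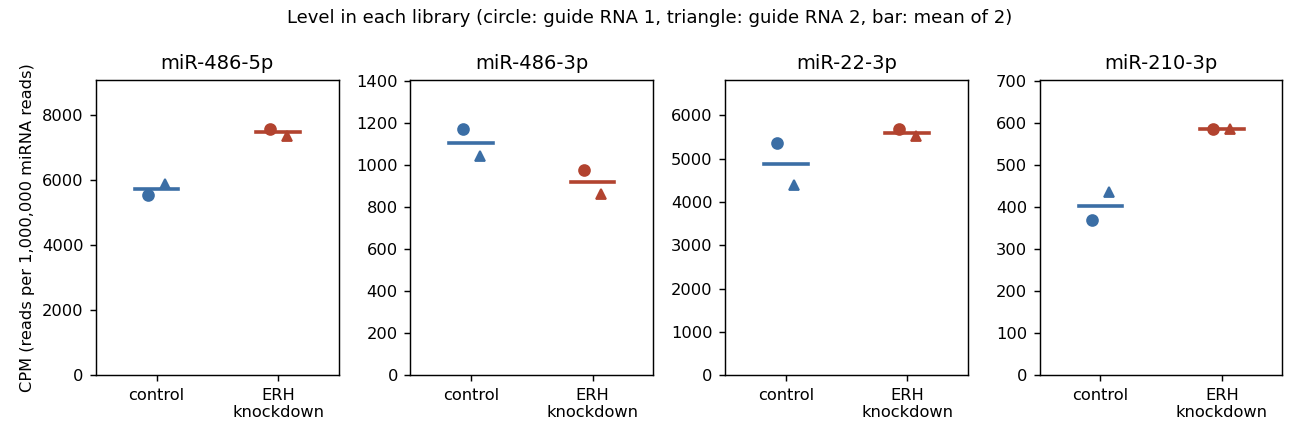
Level in CPM of each miRNA in the 4 libraries, on axes that start at 0, with circles for guide RNA 1, triangles for guide RNA 2 and a bar for the mean of 2. Knockdown points lie above the controls for miR-486-5p, miR-22-3p and miR-210-3p and below them for miR-486-3p (978 and 864 against 1171 and 1041 CPM).

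miR-22-3p came next to miR-486-5p in level. Its knockdown libraries gave 12662 and 13220 reads, and its controls 7658 and 10893. The knockdown libraries were close, at 5685 and 5523 CPM, whereas the controls stood apart, at 5354 CPM with guide RNA 1 and 4398 CPM with guide RNA 2. The size of its change therefore differed between the lines. With TMM it was -0.34 (counting interval -0.38 to -0.30) within guide RNA 1 and -0.12 (-0.16 to -0.09) within guide RNA 2, and with library size it was 0.09 and 0.33. The gap of 0.21 between the guide RNAs is beyond counting error. It is larger than the median gap of 0.07 among the 104 miRNAs at least as abundant as miR-210-3p, of which 15 had a larger gap. The call was lost without the knockdown of guide RNA 1 (-0.24, edgeR, adjusted p = 0.16), without that of guide RNA 2 (-0.24, adjusted p = 0.085) and without the control of guide RNA 1 (-0.13, adjusted p = 0.051). The other arm, miR-22-5p, had no row of that name in the count tables, so it was not analysed.

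miR-210-3p was the least abundant of the 4. Its knockdown libraries gave 1307 and 1402 reads, and its controls 529 and 1083. Both knockdown libraries stood at 587 and 586 CPM, above the controls at 370 and 437 CPM, as for 69.2% of tested miRNAs. Within guide RNA 1 the log2 ratio with TMM was 0.24 (counting interval 0.10 to 0.39), and within guide RNA 2 it was -0.03 (-0.15 to 0.09). With library size the ratios were 0.67 and 0.42, and with spike-ins 0.95 and 0.65, each the largest of the 4 miRNAs in its line. Its other arm miR-210-5p was thin, at 14 and 25 reads in the knockdown libraries and 9 and 24 in the controls, and its value of -0.44 ± 0.37 did not pass (edgeR, adjusted p = 0.34). Its counting intervals within a line ran from -1.74 to 0.96 and from -1.21 to 0.53 with TMM, on both sides of 0.

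**Figure D3:**
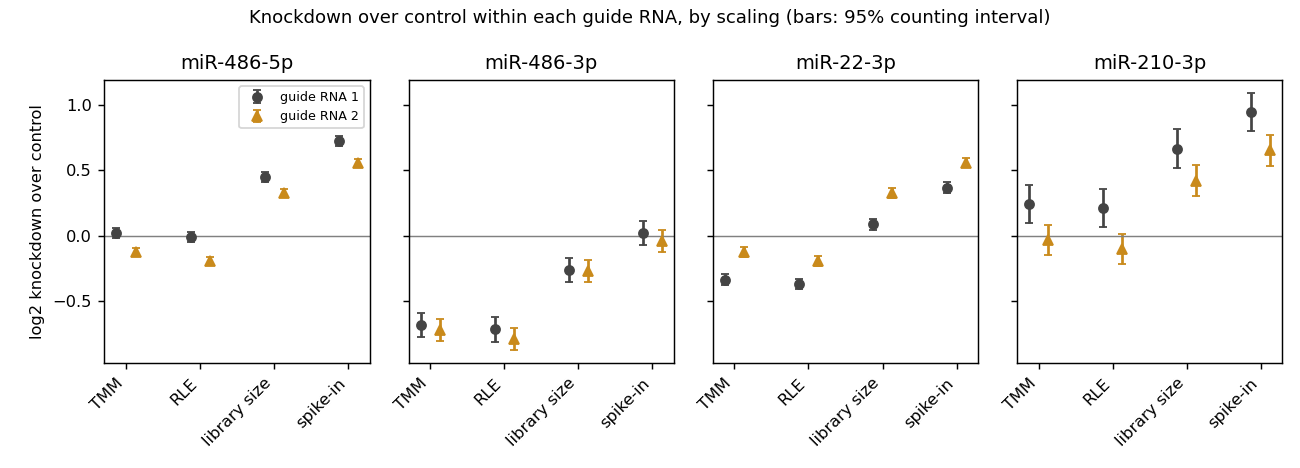
Log2 ratio of knockdown to control within guide RNA 1 (circles) and guide RNA 2 (triangles) under 4 scalings, with bars for the 95% counting interval. The scaling moves all 4 miRNAs alike, and miR-486-3p lies lowest under each, from -0.72 to -0.68 with TMM and from -0.04 to 0.02 with spike-ins.

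By level, the order in every library was miR-486-5p, miR-22-3p, miR-486-3p and miR-210-3p. CPM counts whole mature miRNAs with no division by length, and ligation can favour some sequences, so this is an order of read levels. In controls miR-486-5p stood at 5718 ± 221.2 CPM and miR-22-3p at 4876 ± 676 CPM (SD, n = 2). After knockdown they stood at 7475 ± 146 and 5604 ± 114 CPM. Both are counted in the same libraries. Within the controls miR-486-5p was the higher by little with guide RNA 1 (5562 against 5354 CPM). With guide RNA 2 it was higher by more (5875 against 4398 CPM), and the difference was not tested. miR-486-3p stood at 1106 ± 91.7 CPM in controls and 921 ± 80.2 after knockdown, and miR-210-3p at 404 ± 47.7 and 586 ± 0.744 CPM. Among all miRNAs, miR-486-5p ranked between 23rd and 27th, miR-22-3p between 30th and 32nd, miR-486-3p between 68th and 83rd, and miR-210-3p between 98th and 107th. miR-486-3p stood lower in that order in both knockdown libraries (80th and 83rd) than in both controls (68th and 70th).

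The arm ratio of miR-486, which rests on no scaling since both counts come from 1 library, was lower in both knockdown libraries. The 3p arm made up 17.4% (95% Clopper-Pearson interval 16.6 to 18.2) and 15.1% (14.5 to 15.6) of the reads of both arms in the controls of guide RNAs 1 and 2. After knockdown it made up 11.4% (11.0 to 11.9) and 10.5% (10.1 to 10.9). The groups did not overlap. Controls averaged 0.194 ± 0.024 reads of 3p per read of 5p (SD, n = 2) and knockdown libraries 0.123 ± 0.008, a 1.57-fold lower value, with log2 changes of -0.71 within guide RNA 1 and -0.60 within guide RNA 2. The gap between the 2 controls was 0.25 and that between the 2 knockdown libraries 0.14, both smaller than the change. Of 9 ratios compared, an exact permutation test of 2 libraries against 2 gave p = 0.33 (two-sided) for this one, the smallest it can give, and 0.43 after Benjamini-Hochberg adjustment.

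Set against all 109 hairpins with both arms tested, the miR-486 arm ratio did not pass the main test. Its log2 change was -0.65 ± 0.17 (SE; limma, adjusted p = 0.153; unadjusted p = 0.013), and 0 of 109 hairpins (0%) were called, while 21 had an unadjusted p under 0.05. When limma's prior variance was allowed to follow read depth, 13 hairpins (11.9%) were called and miR-486 was among them (SE 0.12, adjusted p = 1.9e-04). With both arms held to a mean of at least 10 CPM, 6 of 84 were called and miR-486 was again among them (limma, adjusted p = 0.042). With the guide RNA as a block, 9 were called, without miR-486 (limma, adjusted p = 0.25). That fit gave the same SE, 0.30, to miR-486 and to miR-210, whose less abundant arms averaged 2125 and 18 reads. In 54 hairpins (49.5%) the groups did not overlap, so lack of overlap on its own is common here.

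The less abundant arm was the one that was lower relative to its partner in 65 of the 109 hairpins, with a median change of -0.08. In 11 of them it was lower by more than in miR-486. Of 16 hairpins whose less abundant arm averaged at least 1000 reads, a limit chosen after the values were seen, it was lower in 10, with a median of -0.02, and 1 of the 16 (miR-223) had a larger change than miR-486. For miR-210 the 5p arm made up 1.06% (95% interval 0.58 to 1.77) and 1.75% (1.14 to 2.58) of reads after knockdown, and 1.67% (0.77 to 3.15) and 2.17% (1.39 to 3.21) in controls. Those groups overlapped, and the change did not pass (limma, adjusted p = 0.42).

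**Figure D4:**
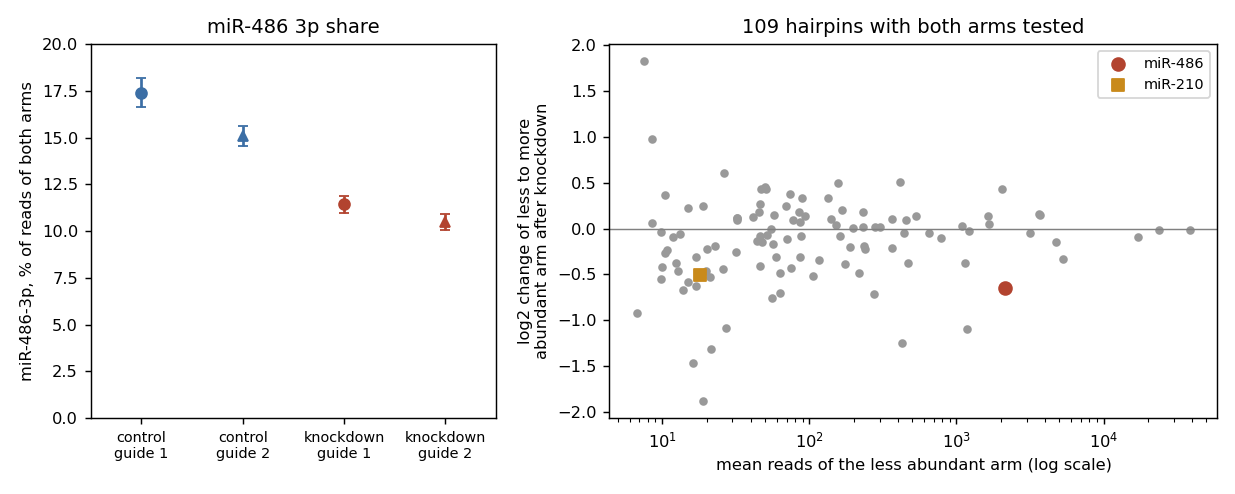
Left, miR-486-3p as a percentage of the reads of both miR-486 arms in each library, with 95% counting intervals; knockdown libraries (11.4% and 10.5%) lie below controls (17.4% and 15.1%). Right, log2 change of the less abundant to the more abundant arm for 109 hairpins against the mean reads of the less abundant arm (log scale), with miR-486 (-0.65) and miR-210 (-0.50) marked.

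Other ratios show how the 4 parted from one another. In most of the 9 ratios compared the groups did not overlap, so lack of overlap is common here too. The count of miR-22-3p per miR-486-5p was 0.750 and 0.749 after knockdown and 0.963 and 0.749 in controls. The control of guide RNA 1 alone stood apart there, and within guide RNA 2 the ratio differed by 0.00 on the log2 scale. The count of miR-210-3p per miR-486-5p was 0.0774 and 0.0795 after knockdown and 0.0665 and 0.0744 in controls, so the groups did not overlap, but the mean log2 difference of 0.157 was smaller than the gap of 0.163 between the 2 controls. The count of miR-486-3p per miR-22-3p was 0.172 and 0.157 against 0.219 and 0.237, 1.39-fold lower after knockdown. Relative to miR-22-3p, then, the passenger arm was lower in both lines, with log2 changes of -0.35 and -0.60.

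In red cells miR-486 acts beside the locus of miR-144 and miR-451a. miR-144-3p (0.74 ± 0.05) and miR-144-5p (0.88 ± 0.06) rose (edgeR, adjusted p = 1.7e-08 and 1.1e-08). miR-451a, which Argonaute 2 matures without DICER, fell by 0.48 ± 0.05 (edgeR, adjusted p = 8.6e-07). So 3 of 3 were called, where 50.9% of all tested miRNAs were. They parted in direction, and their median of 0.74, against 0.06 over all tested, is the value of miR-144-3p. The 3 were abundant, at log2 CPM of 10.6 (miR-144-5p) to 14.6 (miR-451a), so all tested miRNAs are not a matched background. Both arms of miR-144 were also called higher with library size and with spike-ins. miR-451a was not called there, at -0.05 (edgeR, adjusted p = 0.43) and 0.21 (adjusted p = 0.67). These fits did not pair the libraries by guide RNA, and this list was chosen with earlier results of these data known. miR-486-5p lay between them. Its count per miR-451a was 0.315 and 0.306 after knockdown against 0.220 and 0.239 in controls (1.35-fold higher), and its count per miR-144-3p was 0.405 and 0.435 against 0.690 and 0.760 (1.73-fold lower). Neither pair of groups overlapped, as in most of the 9 ratios compared and in 49.5% of the 109 arm ratios. The exact permutation test gave p = 0.33 for each, its smallest.

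Of 10 other miRNAs studied in red cell development, 8 were tested. miR-150-5p and miR-155-5p had at most 3 reads in any library. Of the 8, 6 fell and 0 rose with TMM, where 25.2% of all tested miRNAs fell and 25.6% rose. The list was chosen with earlier results of these data known, so these shares do not test for a red cell pattern. The 8 were also abundant, at log2 CPM of 10.2 (miR-222-3p) to 14.9 (miR-223-3p), so all tested miRNAs are not a matched background. Their median was -0.34, against 0.06 over all tested. miR-15a-5p, which targets the progenitor factor MYB, fell by 0.80 ± 0.05 (edgeR, adjusted p = 4.1e-09). miR-221-3p and miR-222-3p, which target the stem cell factor receptor KIT, fell by 0.42 ± 0.06 and 0.33 ± 0.06 (edgeR, adjusted p = 5.4e-05 and 4.7e-04). miR-223-3p, which targets LMO2, fell by 0.54 ± 0.05, miR-191-5p by 0.35 ± 0.05 and miR-16-5p by 0.30 ± 0.05 (edgeR, adjusted p = 7.4e-07, 2.5e-05 and 8.9e-05). miR-24-3p was at -0.11 ± 0.05 and miR-96-5p at -0.03 ± 0.05, neither called. These directions also rest on scaling. With library size 3 of the 8 were called higher, against 58.8% of all tested miRNAs, and 1 was called lower (median 0.09). With spike-ins, where 40.1% of all tested miRNAs were called higher, 0 of the 8 were called by edgeR (median 0.35). Their lowest unadjusted p there was that of miR-96-5p, 0.087 (edgeR), and that fit did not pair the libraries by guide RNA. miR-15a-5p was the 1 called lower with library size, at -0.36 (edgeR, adjusted p = 1.2e-06).

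The miRNAs whose levels moved most alike were sought among 172 others with a mean of at least 100 CPM, by the distance between their centred, TMM-scaled log2 CPM over the 4 libraries. miR-486-5p was nearest to miR-101-3p (distance 0.05) and miR-30e-3p (0.08). Neither was called, at -0.09 (edgeR, adjusted p = 0.21) and -0.00 (adjusted p = 0.98). miR-486-3p was nearest to miR-33b-3p (0.14), also a 3p arm, and to miR-224-5p (0.14), both of which fell, by 0.75 and 0.66 (edgeR, adjusted p = 2.9e-05 and 3.6e-08). miR-22-3p was nearest to miR-340-5p (0.10) and miR-374a-3p (0.13), which fell by 0.18 and 0.35 (edgeR, adjusted p = 0.035 and 0.0062) and, like miR-22-3p, had their highest TMM-scaled level in the control of guide RNA 1. miR-210-3p was nearest to miR-30e-3p (0.13) and miR-99b-3p (0.13), neither called. The median distance of the 172 was 0.33 from miR-486-5p, 0.63 from miR-486-3p, 0.34 from miR-22-3p and 0.41 from miR-210-3p. With 4 libraries that share depth and scaling, these distances describe the libraries only. The neighbours were picked by these same levels. Their changes, calls and highest library therefore follow from the choice and are not separate results.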

How the data were processed

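Small RNA was gel purified from total RNA (TRIzol), per the labels' protocols. The deposited values are raw read counts per mature miRNA, 1 table per library. The aligner, annotation release and genome build, and the treatment of reads shared by several hairpins, were not given in the sources used here. By their names, 2 of 2368 rows are spike-in RNAs. They made up 1.96% to 3.13% of reads and stayed out of library totals. No source used here gives their amount or when they were added.

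From these counts, 464 miRNAs passed filterByExpr (its count settings at 10 and 15). They were scaled by TMM and tested, knockdown against control, by quasi-likelihood in edgeR 4.0.16 (R 4.3.3), with Benjamini-Hochberg adjustment over all tested miRNAs (called under 0.05). Arm ratios were log2 ratios of counts plus 0.5, fitted with limma 3.58.1 over 109 hairpins. Within-guide intervals are exact binomial and cover counting error only. For a miRNA with no read the upper limit, 3 reads, is 1.21 to 2.10 CPM. Scripts were tested on simulated data. Named miRNAs were the 4 members, the other arms miR-22-5p (without a row) and miR-210-5p, and the locus of miR-144 and miR-451a. A list of 10 from red cell development and the 2 nearest patterns of each member were also named. The members and lists were chosen with earlier results of these data known.

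Replicate numbers stand for the guide RNAs, each with its own line, and so pair the libraries. The deviations of paired libraries from their group means had a correlation of -0.11 across miRNAs. Neither group held a duplicate library, with chi-square values of 4.72 (knockdown) and 10.7 (control) per degree of freedom. Alternatives were the replicate block, DESeq2 1.42.0, RLE, library size, spike-ins, other filters, leaving out the most abundant miRNA or each library, and for arm ratios a depth-dependent prior variance and 2 reads added. Plots were drawn with matplotlib 3.10.9.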

Additional observations from a re-analysis of the deposited data

Results flagged for a closer look

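For both of the results below, the log2 ratios within guide RNA 1 and guide RNA 2 had opposite signs under TMM scaling, although in each case 1 of the 2 lay within counting error of 0. With 1 library per group in each line the difference between them was not tested. For miR-486-5p the log2 ratio of knockdown to control was 0.023 within guide RNA 1 (95% counting interval -0.015 to 0.062) and -0.12 within guide RNA 2, and with RLE scaling the signs were the same (-0.0086 and -0.19). For miR-210-3p it was 0.24 and -0.030 (-0.15 to 0.086). Opposite signs were seen in 83 of 464 tested miRNAs (17.9%). The gap between the guide RNAs was 0.15 for miR-486-5p and 0.27 for miR-210-3p. Of the 104 miRNAs at least as abundant as miR-210-3p, 28 had a larger gap than the former and 11 a larger gap than the latter. The control of guide RNA 1, which had the fewest reads, was the lowest of the 4 libraries for both miRNAs in TMM-scaled level, and its part in these gaps was not tested.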

How the results depend on the processing

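Between knockdown and control, 236 of the tested miRNAs were called in the fit reported, and 150 with DESeq2 (48 higher, 102 lower, against 119 and 117). Leaving out 1 library each gave 117 (without the knockdown of guide RNA 1) to 195 calls, with 140 without the control of guide RNA 2. With guide RNA as a replicate block 230 were called, and the block changed no call of the 4 miRNAs; its arm ratio count (9 against 0) is given above. A crossed pairing, added after seeing the data, called 241. miR-486-3p fell in 11 of 12 alternatives, the exception being spike-in scaling (-0.012). miR-486-5p turned to 0.39 with library size, to 0.63 with spike-ins and to 0.0031 without control replicate 2, and ran from -0.134 (without control replicate 1) to 0.0031 over the libraries left out. miR-22-3p turned to 0.20 with library size and to 0.47 with spike-ins. miR-210-3p turned to -0.058 without control replicate 1, and ran from there to 0.241 without control replicate 2. The miR-486 arm ratio kept its direction in all 8 alternatives run; at -0.65 it was called with the depth-dependent prior variance and with both arms at 10 CPM or more, and leaving out 1 library each gave -0.78 to -0.53, none called. The number of arm ratios called was 5 with 2 reads added, and otherwise as given above. Depth limits miR-210-5p, at 9 to 25 reads.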
